A study of Mus musculus with 38 samples.

Results

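The comparison set unstressed mutant mice directly against stressed control mice, 19 of the 38 bulk RNA sequencing libraries of mouse medial prefrontal cortex in the study. Members were taken from the sample names: the 8 libraries of mutants without stress (3 males, 5 females) and the 11 libraries of controls after stress (6 males, 5 females). The 2 groups share no library and no reference. On group means within a cohort, each gene's difference is in arithmetic its difference for mutation alone minus its difference for stress alone. The values given below come from different fits, so they subtract only approximately. Control mice were SSTCre, carrying Cre recombinase under the somatostatin promoter. Mutant mice carried the same SSTCre and in addition a floxed (f/f) allele, on which Cre acts in cells that use or have used the somatostatin promoter. Both groups therefore carry Cre. Stressed mice (CVS) went through chronic variable stress for 21 days and were killed 24 hours after the final stressor, while unstressed mice (NS) did not. Males and females came from separately named animal series and are called cohorts here. Cohort and sex cannot be told apart, so levels were not tested between them, and every test held cohort constant or was made within it. The sources used here give no animal ages, and each library came from 1 animal.

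Somatostatin interneurons are GABAergic cells of the cortex that contact the distal dendrites of pyramidal neurons, and they release the peptide somatostatin along with GABA. Chronic stress is known to act on this circuit, on glucocorticoid signalling and on activity-regulated genes in prefrontal cortex. In whole tissue these cells are a small share of the RNA, so a change confined to them is diluted.

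The 19 libraries held 17.64 M to 25.12 M counts (median 19.99 M). Cortical glutamatergic neuron markers summed to between 3509 and 3828 CPM (counts scaled to a total of 1000000 per library) in all 4 groups, and Slc17a7, the vesicular glutamate transporter of cortical neurons, ran from 1718 to 2090 CPM. Cdhr1, a cadherin of the olfactory bulb, stood apart in 3 male libraries and reached 26.6 CPM in the mutant NS males against at most 5.11 CPM in the mutant NS females. Male mutant NS replicates 2 and 3 and male control CVS replicate 1 are these libraries. The 14 olfactory bulb markers, 11 of them tested, together summed to 96.81 to 117.4 CPM in male mutants and 88.25 to 104 CPM in stressed males. The part of such tissue in the male differences was not tested directly, and results that lose their call without them are given with and without. Meningeal fibroblast markers summed to 798.0 to 1384 CPM in mutant NS females and 455.3 to 1071 CPM in control CVS females, and to 692.6 to 855.6 CPM against 418.4 to 1031 CPM in males. The genotype and stress labels were taken as given.

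Only a small set of genes separated unstressed mutants from stressed controls in both cohorts together. Of 17038 genes tested with cohort as a term, 18 (0.106%) passed an adjusted p of 0.05 by edgeR's quasi-likelihood test, 8 higher (0.0470%) and 10 lower (0.0587%) in the mutants. Including these, 1513 genes had a raw p under 0.05, 735 higher (4.31%) and 778 lower (4.57%), where chance gives 852. All 18 had the same sign in both cohorts, and for all 18 each of the 8 mutant libraries lay on the same side of the mean of its own cohort's stressed controls. The 18 were chosen by their p in these same libraries, which favours such agreement, so it is not a separate test. For 8 of the 18 the libraries of the groups did not overlap in either cohort, against 14 genes (0.0822%) in all, and counted within 1 cohort the groups did not overlap for 2.88% of genes in males and 3.05% in females. Differences are given as log2(mutant NS / control CVS) with their standard error, and levels as CPM.

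Ccng1, cyclin G1, a target gene of the tumour suppressor p53, had the smallest adjusted p among the genes that encode a protein. Male mutants stood at 88.7, 93.1 and 95.02 CPM and stressed male controls at a lowest of 72.1, a median of 73.5 and a highest of 76.1. Female mutants stood at 83.9, 86.8, 91.1, 94.3 and 101 CPM and stressed female controls at 62.4, 63.9, 67.6, 69.9 and 75.4. The groups did not overlap in either cohort. Ccng1 was higher in the mutants by 0.38 ± 0.0392, adjusted p 3.78e-07, with 0.32 ± 0.0563, adjusted p 0.0165 in males and 0.43 ± 0.0514, adjusted p 1.31e-05 in females. Over both cohorts it kept its call in all 30 alternatives run, while the male value alone no longer passed without male mutant NS replicate 1, 2 or 3 (adjusted p 0.105, 0.134 and 0.0722) or without the 3 libraries of high Cdhr1 (0.242). Unstressed controls held 70.8 to 79.9 CPM in males and 69.7 to 76.0 CPM in females, also below every unstressed mutant of the same cohort.

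Ublcp1, a phosphatase that acts on the nuclear proteasome, was lower in the mutants. Male mutants held 24.8, 25.5 and 29.8 CPM and stressed male controls a lowest of 31.9, a median of 34.6 and a highest of 41.8. Female mutants held 25.6, 27.1, 29.7, 29.9 and 31.0 CPM and stressed female controls 33.8, 34.4, 35.4, 35.7 and 37.5. No mutant reached a stressed control of its cohort, and the difference was −0.35 ± 0.0526, adjusted p 9.63e-04. Thg1l, which adds a guanosine to histidine transfer RNA, was higher by 0.55 ± 0.0922, adjusted p 0.00323: male mutants held 7.77, 7.82 and 9.86 CPM against 5.72 to 7.01 in stressed males, and female mutants 7.22, 7.86, 10.1, 10.2 and 11.7 CPM against 5.22 to 6.21 in stressed females. In RefSeq's gene order of GRCm38.p6, another build than that of the counts, Ublcp1 lies 15 and Thg1l 20 protein-coding places after Ccng1. Among the 40 other tested genes within 25 places of Ccng1 on either side, a span chosen after the values were seen, 2 passed (5.00%) against 0.106% of all genes. Matched by symbol to the protein-coding genes of that chromosome, 5 of the 18 were found, Adamts2 and Stac2 far from the others, 89 and 883 places away. A gene that does not encode a protein would be missed, so where Gm12663 (below) lies was not checked. The share of all tested genes on that chromosome was not counted.

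Pttg1, securin, an inhibitor of the separase that splits sister chromatids, lies 6 places from Ccng1 and behaved differently. In male mutants it stood at 0.0474, 0.0503 and 9.26 CPM and in female mutants at 0.145, 0.330, 0.386, 8.59 and 10.1 CPM. Stressed controls held 17.6 to 20.9 CPM in males and 16.4 to 21.6 CPM in females, and unstressed controls 17.1 to 19.8 and 18.2 to 20.0 CPM. Every mutant lay below every control, but 5 of the 8 mutants held under 0.4 CPM and the other 3 between 8.59 and 10.11. With that spread among mutants the log2 difference of −2.36 ± 0.570, adjusted p 0.176 did not pass. Gm12663, an annotated locus of unknown function that the naming rule leaves out but earlier results of these data held, had 2.07 to 2.84 CPM in male and 1.48 to 3.35 CPM in female mutants, and 0 to 2 counts in each stressed control. Its fitted log2 difference was 5.46 ± 0.329, adjusted p 4.88e-13, a value that depends on how such low counts are treated. Rnf39, a RING finger gene from the same earlier list, stood at 3.42, 3.57 and 3.74 CPM in male mutants against 4.58 to 6.90 in stressed males, and in females at 4.51 to 7.50 against 5.57 to 7.29; it did not pass (−0.44 ± 0.113, adjusted p 0.148).

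**Figure D1:**
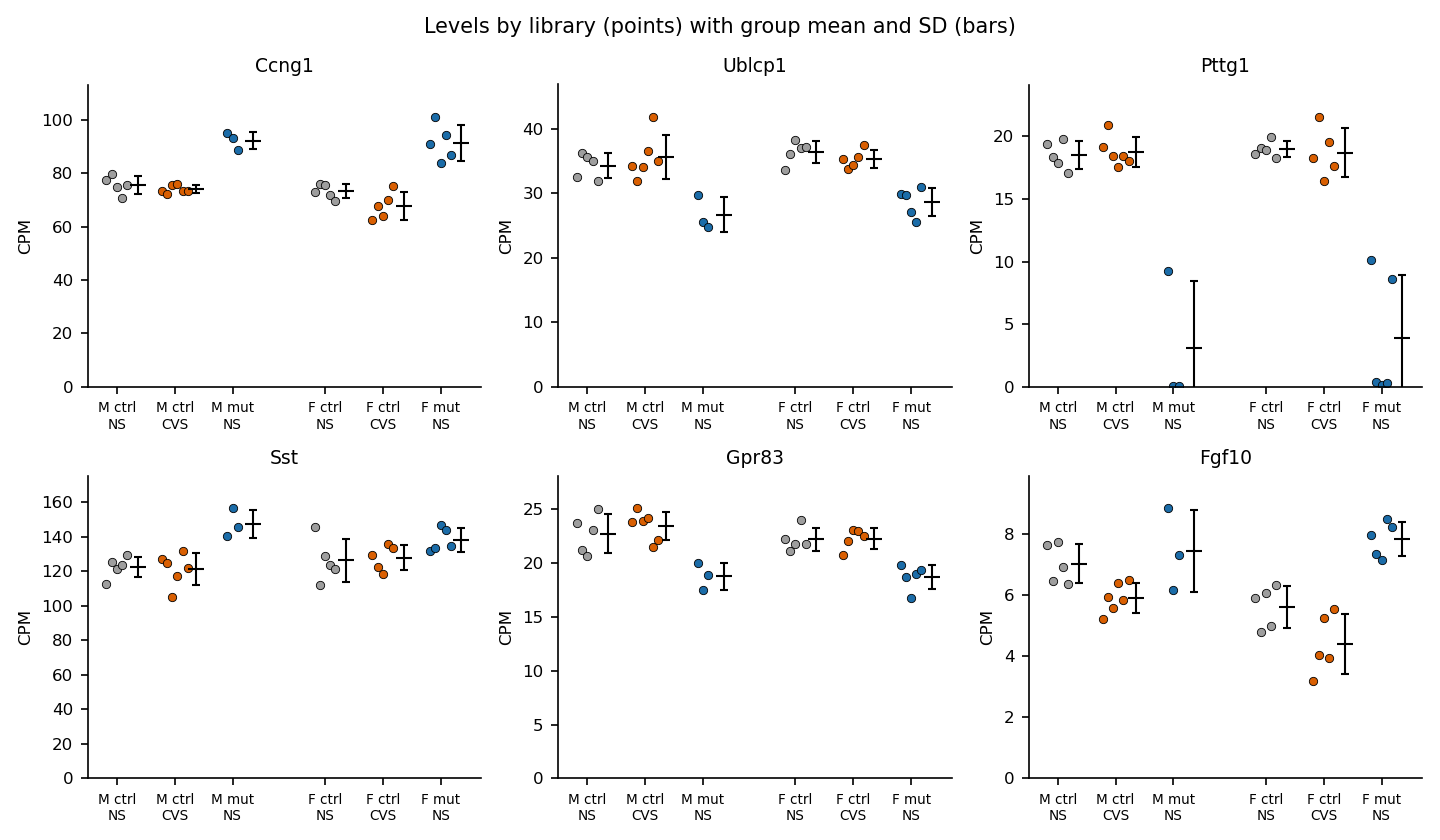
CPM in each library of Ccng1, Ublcp1, Pttg1, Sst, Gpr83 and Fgf10 in unstressed controls (grey), stressed controls (orange) and unstressed mutants (blue), males (M) left and females (F) right, with the group mean and SD as bars, cut off at 0. Unstressed mutants lie above both control groups for Ccng1 and below them for Ublcp1 and Pttg1, and Pttg1 splits into values near 0 and values of 8.59 to 10.11 CPM.

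Among secreted and matrix proteins, Fgf10 and Adamts2 were higher in unstressed mutants. Fgf10, a fibroblast growth factor, stood at 6.16, 7.29 and 8.83 CPM in male mutants and at a lowest of 5.20, a median of 5.89 and a highest of 6.49 in stressed males, which overlapped. In females it stood at 7.14, 7.33, 7.97, 8.22 and 8.47 CPM against 3.20, 3.92, 4.04, 5.26 and 5.54, which did not. The difference was 0.61 ± 0.106, adjusted p 0.00575. Adamts2, the protease that trims procollagen, stood at 10.2, 10.4 and 11.6 CPM against 6.17 to 10.2 in males and at 10.9, 11.4, 11.7, 12.5 and 12.8 CPM against 6.28 to 8.85 in females, a difference of 0.52 ± 0.0872, adjusted p 0.00323. In males the highest stressed control and the lowest mutant were nearly equal. The summed fibroblast markers of female mutants, 798.0 to 1384 CPM, overlapped with the 455.3 to 1071 CPM of stressed females. With the summed fibroblast markers as a covariate, an alternative chosen after the data were seen, both kept their calls and 14 genes passed in all. Of the 18, 6 no longer passed with it: Gng4, Nwd2, Sh2d5, Ap1s1, Stac2 and Arhgef25 (adjusted p 0.0693 to 0.116). In bulk tissue more cells of a type and more RNA per cell cannot be told apart, nor fewer cells and less RNA.

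The other genes that passed had varied roles. Gpr83, a G protein-coupled receptor of the brain, was lower in every mutant: 17.5, 18.9 and 20.0 CPM against 21.5 to 25.1 in stressed males, and 16.8, 18.7, 19.02, 19.3 and 19.8 CPM against 20.7 to 23.1 in stressed females (−0.28 ± 0.0492, adjusted p 0.00575). Gng4, a G protein gamma subunit, was higher: 53.4, 55.9 and 58.7 CPM against 40.3 to 49.1 in males and 49.8, 54.2, 54.9, 56.0 and 57.7 CPM against 43.2 to 51.7 in females (0.25 ± 0.0464, adjusted p 0.0127). In females these ranges overlapped. Stac2, which binds voltage-gated calcium channels, was lower: 83.3, 106 and 116 CPM against 119 to 143 in males and 74.7, 77.3, 80.5, 87.3 and 92.1 CPM against 95.8 to 139.5 in females (−0.41 ± 0.0741, adjusted p 0.0247). Its groups did not overlap in either cohort. Bhlhe22, a transcription factor of cortical neurons, was higher by 0.28 ± 0.0511, adjusted p 0.00859. Male mutants held 53.1 to 63.9 CPM against 41.5 to 50.9, without overlap, and female mutants 58.7 to 68.2 against 45.8 to 61.5, with overlap.

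Megf11, a cell surface protein, stood at 14.3, 16.6 and 20.4 CPM in male mutants against 19.9 to 25.5 in stressed males and at 15.7 to 18.2 against 19.3 to 24.3 in females, and was lower (−0.34 ± 0.0640, adjusted p 0.0129). Igfn1, an immunoglobulin domain protein, was lower as well (−0.69 ± 0.120, adjusted p 0.0246). Igfn1 stood at 17.5, 18.1 and 25.4 CPM in male mutants against a lowest of 26.8, a median of 36.6 and a highest of 41.7 in stressed males, and in females 14.3 to 24.8 against 22.1 to 37.0 CPM overlapped. Small differences under 0.25 log2 units passed for Nwd2 (0.23, higher), Sh2d5 (−0.18), Ap1s1, a clathrin adaptor subunit (−0.17) and Arhgef25, a guanine nucleotide exchange factor (−0.17), with adjusted p from 0.0186 to 0.0388. The other 2 genes, the unnamed transcripts C130074G19Rik (−0.28 ± 0.0464, adjusted p 0.00323) and 6430548M08Rik (−0.15 ± 0.0272, adjusted p 0.00859), fall outside the naming rule and were named after their values were seen.

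The calls rested in part on single libraries. Leaving out 1 library at a time, 9 of the 18 kept their call in all 19 runs: Gm12663, Ccng1, Ublcp1, Thg1l, Adamts2, Fgf10, Gpr83, C130074G19Rik and 6430548M08Rik. The total ran from 9 without male mutant NS replicate 3 to 37 without male mutant NS replicate 2, and it was 62 without the 3 libraries of high Cdhr1, which leaves 1 male mutant that is assumed to vary like the other groups. In that last fit 5 of the 18 no longer passed: Gpr83 (adjusted p 0.0585), Gng4 (0.0633), Bhlhe22 (0.0708), Megf11 (0.0811) and Igfn1 (0.0992). Arhgef25 kept its call in 7 of the 19 runs and Stac2 in 10.

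The direct contrast was set beside the 2 effects it is made of. In a model of all 38 libraries (17671 genes), mutation alone (mutant NS against control NS) gave 36 genes (0.204%), 11 higher (0.0622%) and 25 lower (0.141%). Stress alone (control CVS against control NS) gave 0 by edgeR's quasi-likelihood test, with 1557 genes at a raw p under 0.05 (chance gives 884), a smallest adjusted p of 0.163, 15 genes by DESeq2 and 0 by limma voom. These 2 comparisons share the unstressed controls, so their values are given side by side only. Averaged over the cohorts, mutation alone gave a difference larger in size than stress alone for 17 of the 18 genes. For mutation alone 10 of the 18 also passed. The 2 differences had opposite signs for 15 of the 18, which adds to the size of the direct contrast. The 18 were chosen on the direct contrast, which shares a group of libraries with each effect and favours large differences of opposite sign. These counts are therefore not a separate test.

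Ccng1 stood at 0.30 ± 0.0372 for mutation alone and −0.07 ± 0.0341 for stress alone. Ublcp1 stood at −0.35 ± 0.0586 and 0.01 ± 0.0519, and Gpr83 at −0.26 ± 0.0475 and 0.02 ± 0.0423. For these the stress difference was small beside the mutation difference. Averaged over the cohorts, Fgf10 was the 1 gene of the 18 whose stress difference was the larger, by less than its standard error. It stood at 0.28 ± 0.105, adjusted p 0.339 for mutation and −0.31 ± 0.0983, adjusted p 0.323 for stress. Mean Fgf10 in males was 7.02 CPM in unstressed controls, 7.43 in mutants and 5.90 in stressed controls. In females the means were 5.61, 7.83 and 4.39 CPM in the same order, so there the mutation difference was the larger. The other genes were not ranked within cohorts. It was also among the 8 genes that passed in the direct contrast and for neither effect alone. Unstressed controls held 6.37 to 7.74 CPM in males and 4.78 to 6.31 in females. Among these 8 were also Igfn1, with −0.39 ± 0.125, adjusted p 0.231 for mutation and 0.31 ± 0.109, adjusted p 0.383 for stress, and Arhgef25, with −0.09 ± 0.0340 and 0.08 ± 0.0307.

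**Figure D2:**
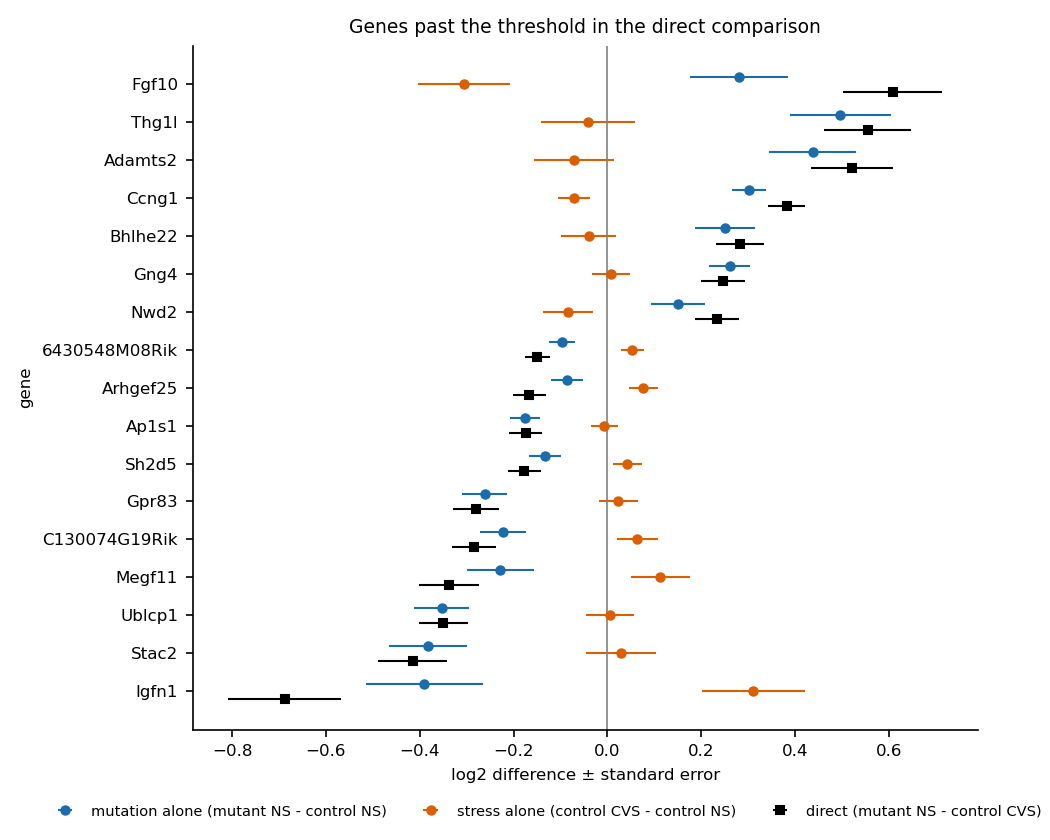
Log2 differences with standard errors of 17 of the 18 genes that passed in the direct contrast (black), with mutation alone (blue) and stress alone (orange); Gm12663 is off the scale and left out. Blue points lie beside the black ones and orange points near 0 for most genes. For some, among them Fgf10, Igfn1 and Arhgef25, blue and orange lie at similar distances on opposite sides of 0.

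Genes that the naming rule took regardless of their p showed other proportions. Dbp, a clock output factor, stood at −0.40 ± 0.0886, adjusted p 0.126 in the direct contrast, −0.09 for mutation alone and 0.33 ± 0.0826 for stress alone. Vgf, a secreted neuropeptide precursor regulated by neuronal activity, stood at −0.28 ± 0.0604, adjusted p 0.0939. Its mutation difference of −0.41 ± 0.0622, adjusted p 8.22e-04 passed, while stress alone, at −0.13 ± 0.0557, adjusted p 0.5003, went the same way and made the direct contrast smaller. Male mutants held 322, 358 and 381 CPM against a lowest of 338, a median of 426 and a highest of 507 in stressed males. Female mutants held 310.0, 336, 343, 347 and 390.3 CPM against 410.5, 422, 423, 437 and 449 in stressed females, with no overlap.

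Sst itself, the peptide that names the targeted cells and whose promoter drives Cre, narrowly missed the threshold. Male mutants held 140.5, 146 and 156 CPM against a lowest of 105, a median of 124 and a highest of 132 in stressed males, without overlap. Female mutants held 132, 133, 135, 144 and 147 CPM against 119, 122.8, 129, 134 and 136, with overlap. The difference was 0.19 ± 0.0413, adjusted p 0.0557, with 0.28 ± 0.0573, adjusted p 0.0551 in males, 0.11 ± 0.0519, adjusted p 0.350 in females, 0.20 for mutation alone and 0.00 for stress alone. The CREB response element is the textbook regulatory site of the Sst promoter. The RefSeq promoter (GRCm38.p6, 250 bases before the start, 5′ to 3′) is shown with the match to TGACGTCA, searched on both strands, in capitals; it begins 48 bases before the start, and 1.55% of 32851 promoter windows of that length hold one.
Sst promoter (chr16:23890845-23891094, minus strand): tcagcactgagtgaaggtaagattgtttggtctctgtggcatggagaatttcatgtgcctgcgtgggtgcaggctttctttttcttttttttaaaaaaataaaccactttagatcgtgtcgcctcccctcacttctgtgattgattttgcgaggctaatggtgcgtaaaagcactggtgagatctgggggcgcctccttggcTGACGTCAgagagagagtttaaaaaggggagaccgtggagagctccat

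Of 18 tested somatostatin interneuron markers 0 passed, 12 lay above 0 and the median log2 difference was 0.03, where 8476 of all 17038 genes lay above 0 and their median was near 0. At an unadjusted p under 0.05 were 5 of the 18, where 8.88% of all genes were. Myh8, a myosin used as a subtype marker, stood at 0.84 ± 0.297, adjusted p 0.368, Etv1, a transcription factor also of deep pyramidal cells, at 0.10, and Pdyn, prodynorphin, at −0.16. Summed over the list, male mutants held 876.9 to 908.7 CPM against 814.8 to 875.9 in stressed males, and females 848.3 to 889.2 against 816.9 to 894.2.

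Parvalbumin interneuron markers leaned the other way: 0 of 13 passed, 11 lay below 0 and the median was −0.10. Pvalb, the calcium buffer of fast-spiking cells, stood at 24.9, 26.4 and 39.3 CPM in male mutants against a lowest of 23.5, a median of 32.7 and a highest of 47.4 in stressed males, which overlapped. In females it stood at 20.0, 20.5, 22.0, 26.9 and 27.2 CPM against 28.6, 30.2, 30.5, 32.7 and 36.6, which did not. The difference of −0.31 ± 0.135, adjusted p 0.526 did not pass. The potassium channels Kcnc1 (−0.10 ± 0.0355, adjusted p 0.368) and Kcnc2 (−0.10 ± 0.0394, adjusted p 0.414) and the fast calcium sensor Syt2 (−0.43 ± 0.172, adjusted p 0.482) also gave values below 0 that did not pass. The list's sum ranged from 1038 to 1182 CPM in female mutants and from 1160 to 1296 CPM in stressed females. In males the ranges were 1077 to 1320 and 1062 to 1466 CPM. The ranges overlapped in both cohorts. The count above 0 ran from 1 to 3 of 13 when 1 library was left out.

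GABA-A receptors, the pentameric chloride channels at which GABA from these interneurons acts, were tested through 14 subunit genes. None passed, with 1 of 14 at an unadjusted p under 0.05, where 8.88% of all genes were. All 14 fitted values lay above 0 with a median of 0.06, 8 of 14 in males (median 0.02) and 11 of 14 in females (median 0.09). The count was 12 of 14 without male mutant NS replicate 2, and also without the 3 libraries of high Cdhr1. Gabrb1 stood at 0.06 ± 0.0369, adjusted p 0.665, and Gabrg3 at 0.07 ± 0.0462, adjusted p 0.722. The median was 0.05 for mutation alone and near 0 for stress alone.

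Behind the receptors, 5 of 16 inhibitory postsynaptic scaffold genes lay above 0 and 0 passed. Iqsec3, an Arf exchange factor of inhibitory synapses, stood at −0.10 ± 0.0394, adjusted p 0.469, and Insyn1, a gephyrin-associated protein, at −0.08, with −0.18 ± 0.0434, adjusted p 0.0487 in females, where it passed, and 0.04 in males. Trak1, a kinesin adaptor, stood at −0.06. Of 8 genes for GABA synthesis, loading and uptake 7 lay below 0 and 0 passed: Slc32a1, the vesicular GABA transporter, stood at −0.09 ± 0.0371, adjusted p 0.473, Abat, GABA transaminase, at −0.07, Gad1, which makes GABA, at −0.07, and Slc38a1, a glutamine transporter, at 0.04.

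Of 25 neuropeptides and granins 0 passed and 9 lay above 0 (median −0.03). Beside Sst and Vgf, the smallest p values were those of Chga, chromogranin A (−0.15 ± 0.0399, adjusted p 0.176), and Pdyn (−0.16 ± 0.0681, adjusted p 0.478). Penk, proenkephalin, stood at −0.15 ± 0.0674, adjusted p 0.508, Crh, corticotropin-releasing hormone, at 0.04 ± 0.117, adjusted p 0.960, and Bdnf, a neurotrophin, at 0.01 ± 0.0842, adjusted p 0.989. Crh and Bdnf had similar values on both sides of the contrast. Crh stood at −0.29 for mutation alone and −0.30 for stress alone, and Bdnf at −0.24 and −0.24, none of them passing.

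Immediate early genes, which are transcribed within minutes of neuronal activity, gave the same arithmetic over a whole list. Of 30 tested 0 passed, 11 lay above 0, and the median was −0.02. For mutation alone the median was −0.29 and for stress alone −0.26, relative to the same unstressed controls and averaged over the cohorts. The cohorts differed: the list's summed CPM had a median of 2733 in unstressed male controls, 1816 in stressed males and 1436 in male mutants. In females it was 1983, 1733 and 2070 in the same order. Fos stood at −0.02 ± 0.293, adjusted p 0.993, with 8.05, 10.8 and 32.1 CPM in male mutants, a lowest of 8.50, a median of 23.5 and a highest of 29.4 in stressed males and 21.4, 24.6, 38.9, 46.2 and 47.4 in unstressed male controls. In females Fos stood at 9.02, 24.1, 28.0, 28.6 and 32.5 CPM against 17.2, 18.2, 22.2, 24.0 and 24.4. Unstressed female controls held 15.7 to 27.7 CPM. Npas4, an activity-induced transcription factor, stood at 0.02 ± 0.240, adjusted p 0.991, Gadd45b at −0.23 ± 0.0944, adjusted p 0.457, Klf4 at 0.18, Atf3 at −0.46 and Ier5 at −0.13.

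By cohort, 9 of 30 immediate early genes lay above 0 in males (median −0.21) and 21 of 30 in females (median 0.15), and for no member did the difference between cohorts pass. The list's sum was 1282, 1436 and 2150 CPM in male mutants and 1304 CPM in female mutant NS replicate 1 against 1932 to 2179 CPM in the other female mutants. Without male mutant NS replicate 3 the count above 0 was 15 in males and 21 in both cohorts together, and without male mutant NS replicate 2 it was 8 in both together, so the list's side of 0 depended on single libraries. Without the 3 libraries of high Cdhr1, 6 of 30 lay above 0 in males (median −0.55).

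**Figure D3:**
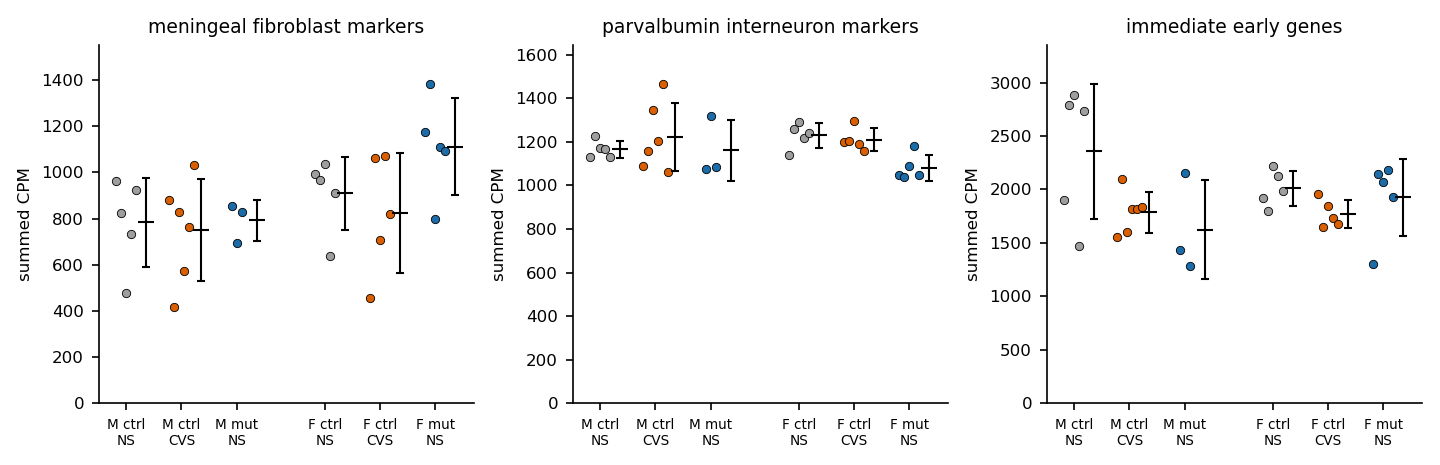
Summed CPM in each library of 16 meningeal fibroblast markers, 13 parvalbumin interneuron markers and 30 immediate early genes, with unstressed controls in grey, stressed controls in orange and unstressed mutants in blue, and the group mean and SD as bars. Fibroblast sums reach 1384 CPM in female mutants, and parvalbumin sums of female mutants lie at 1038 to 1182 CPM. Immediate early gene sums have their largest SDs in unstressed male controls (631 CPM), male mutants (463) and female mutants (360).

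Glucocorticoid signalling was read through 24 induced genes, since stress raises corticosterone. None passed at 24 hours after the last stressor and 12 lay above 0. Fkbp5, a receptor co-chaperone, stood at −0.11 ± 0.117, adjusted p 0.857: female mutants held 30.6, 33.1, 36.9, 37.1 and 43.4 CPM and stressed females 29.5, 30.0, 33.2, 34.6 and 52.4, while males held 20.9, 22.9 and 27.7 against a lowest of 25.8, a median of 26.5 and a highest of 35.9. Sgk1, a kinase, stood at −0.05 ± 0.0979, adjusted p 0.936. Arrdc2, Sult1a1, Zbtb16 and Gjb6 stood at −0.18, 0.20, −0.09 and 0.08. In males 4 of 24 lay above 0 (median −0.09) and in females 17 of 24 (median 0.06). Without female control CVS replicate 2, the library with the highest Fkbp5, 17 of 24 lay above 0 in both cohorts together, and without female control CVS replicate 1 it was 7. Without the 3 libraries of high Cdhr1, 7 of 24 lay above 0 in males. Of 9 genes of the CRH system and corticosteroid receptors 0 passed, with Nr3c1, the glucocorticoid receptor, at 0.06, Nr3c2, the mineralocorticoid receptor, at 0.08, Crhr1 at −0.05 and Adcyap1r1 at −0.06.

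Within cohorts the counts of calls differed widely. In males 5 of 17038 genes passed (0.0293%), 3 higher (0.0176%) and 2 lower (0.0117%), with 982 at an unadjusted p under 0.05. In females 64 passed (0.376%), 26 higher (0.153%) and 38 lower (0.223%), with 2229 at an unadjusted p under 0.05. The males were 3 mutants against 6 controls and the females 5 against 5. Of the 64 female calls, 32 had the same sign in males, 3 passed in males and 11 passed in both cohorts together. Their median size was 0.26 log2 units in females and 0.06 in males. Passing in 1 cohort does not show a difference between cohorts, and the test of the difference itself gave 1 gene (0.00587%).

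That gene was Slc38a2, a sodium-coupled neutral amino acid transporter that carries glutamine. Female mutants held 109.6, 118, 119, 129 and 130.2 CPM and stressed females 86.0, 90.8, 97.8, 97.8 and 101, without overlap. Male mutants held 107, 114 and 114 CPM and stressed males a lowest of 108, a median of 120.0 and a highest of 133, with overlap. Slc38a2 was higher in female mutants by 0.36 ± 0.0538, adjusted p 9.97e-04, a call that was lost in the model of 38 libraries (adjusted p 0.0766), and in males the value was −0.11 ± 0.0599, adjusted p 0.905. The cohorts differed by 0.47 ± 0.0807, adjusted p 0.0319, and this passed in 11 of 26 alternatives. The adjusted p was 0.115 by limma voom, 0.259 in the model of 38 libraries and 0.188 without the 3 libraries of high Cdhr1. It ran from 0.0537 to 0.281 without male control CVS replicate 3, 4 or 6, male mutant NS replicate 1, 2 or 3, female control CVS replicate 1 or 4, or female mutant NS replicate 2, 3, 4 or 5. Unstressed controls stood at 97.0 to 116 CPM in females and 101 to 133 in males.

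Other female calls with the smallest p values were Iglon5, a neuronal cell adhesion protein (−0.39 ± 0.0718, adjusted p 0.0137, −0.12 in males), Ppfia3, a liprin of the presynaptic active zone (−0.20 ± 0.0370, adjusted p 0.0137, 0.00 in males), and H1fx, a linker histone (−0.29 ± 0.0572, adjusted p 0.0190, 0.05 in males), all lower in mutants. Iglon5 stood at 23.4, 23.6, 23.8, 24.3 and 24.8 CPM in female mutants and 27.2, 31.1, 31.4, 31.9 and 35.9 in stressed females. Receptors named here from the 64, chosen after their values were seen, were Adra2a, an adrenergic receptor, at 14.2 to 17.7 CPM against 8.63 to 13.3 (0.56 ± 0.105, adjusted p 0.0137), and Glra3, a glycine receptor subunit (0.47 ± 0.103, adjusted p 0.0403). Both were higher, while the peptide precursors Pdyn (−0.34 ± 0.0753, adjusted p 0.0393) and Chga (−0.23 ± 0.0491, adjusted p 0.0393) were lower. The male values of these 4 were 0.07, −0.04, 0.06 and −0.05.

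On the lower side of the difference between cohorts 0 genes passed, with Frat1 (−0.61 ± 0.117, adjusted p 0.0955), Jund, an AP-1 factor (−0.34 ± 0.0737, adjusted p 0.225), and Fkbp8 (−0.26 ± 0.0580, adjusted p 0.225) having the smallest p values. The number of female calls moved strongly with single libraries: it was 173 without female mutant NS replicate 1, 4 without replicate 3, 5 without replicate 2, 6 without replicate 4 and 21 without replicate 5 of that group. Leaving out female control CVS replicates 1, 2, 3 and 4 gave 9, 33, 25 and 14, and leaving out male control CVS replicate 6, which enters through the shared spread, gave 34.

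In males the 5 genes were Gm12663, Ccng1, Ublcp1, Gng4 and Bhlhe41. Bhlhe41, a basic helix-loop-helix repressor of the circadian clock, stood at 25.2, 26.4 and 29.5 CPM in male mutants and at a lowest of 30.6, a median of 41.6 and a highest of 48.8 in stressed males, without overlap. It was lower in male mutants (−0.59 ± 0.0913, adjusted p 0.00436). Female mutants held 31.6, 34.5, 36.4, 36.5 and 37.7 CPM and stressed females 35.6, 37.6, 38.1, 38.4 and 39.5 (−0.10 ± 0.0794, adjusted p 0.653), and the difference between cohorts was 0.49 ± 0.121, adjusted p 0.274. Without male mutant NS replicate 1 or 3 the male adjusted p was 0.0505 and 0.0954. The male Gng4 call (0.34 ± 0.0659, adjusted p 0.0463) was lost without male control CVS replicate 2, 3, 4 or 5, any 1 of the 3 male mutants, female control CVS replicate 1, 2 or 4, or female mutant NS replicate 3 or 5, with adjusted p from 0.0505 to 0.334. Without the 3 libraries of high Cdhr1 it was 0.783. The count of male calls ran from 1 without male mutant NS replicate 3 to 10 without female mutant NS replicate 1.

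**Figure D4:**
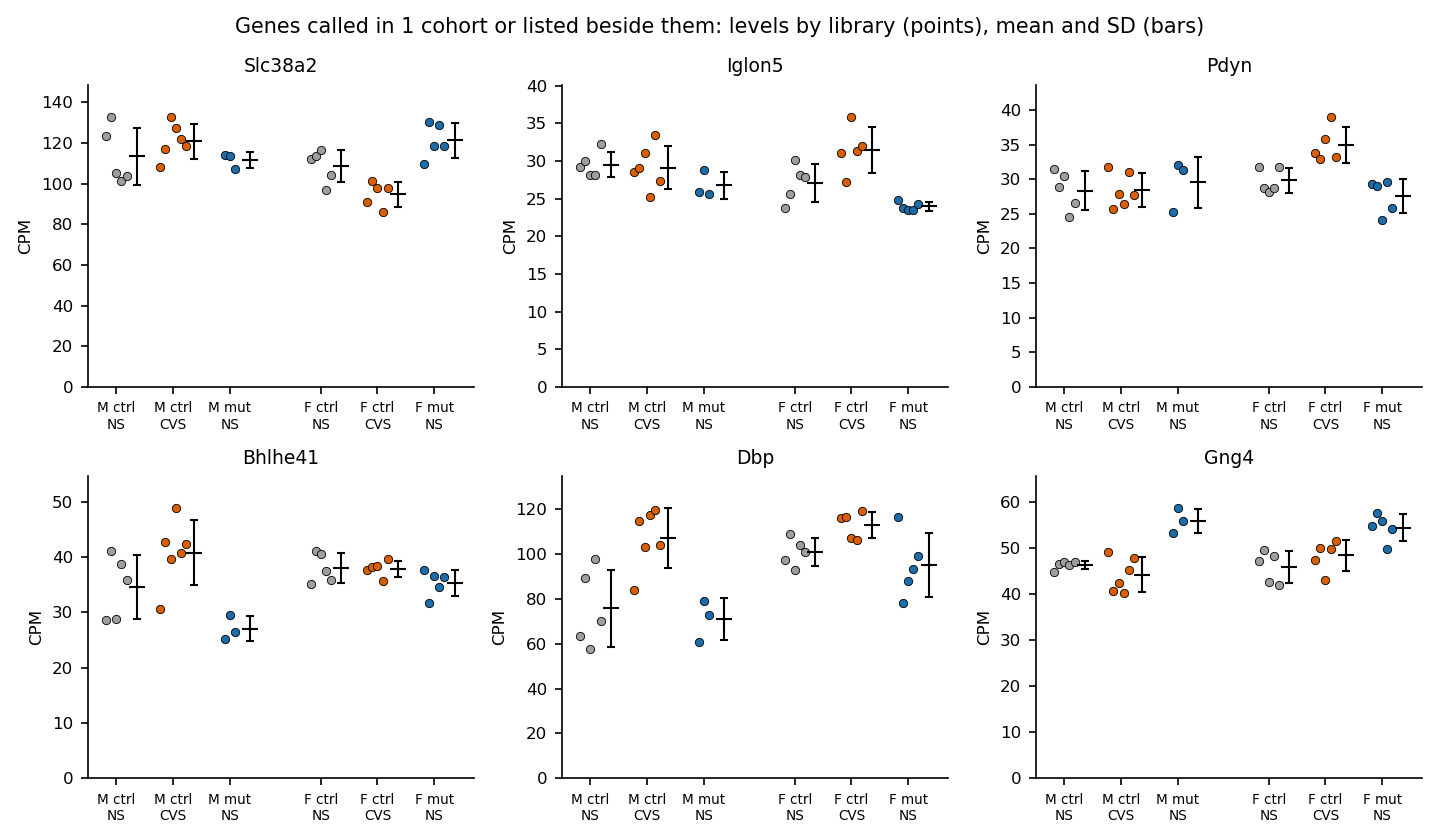
CPM in each library of Slc38a2, Iglon5, Pdyn, Bhlhe41, Dbp and Gng4, in unstressed controls (grey), stressed controls (orange) and unstressed mutants (blue), males left and females right, with the group mean and SD as bars. For Slc38a2, Iglon5 and Pdyn mutants and stressed controls do not overlap in females but do in males. For Bhlhe41, Dbp and Gng4 mutants and stressed controls do not overlap in males but do in females. Unstressed controls are left out of these statements.

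Bhlhe41 belongs to a wider set of circadian genes with values below 0 in males. The clock runs on Clock and Arntl (Bmal1), which switch on Per, Cry, Nr1d1, Dbp, Bhlhe41 and Ciart through E-box sites, and several of these feed back as repressors. Of 21 tested members 0 passed in both cohorts together and 17 lay below 0 (median −0.05). At an unadjusted p under 0.05 were 8 (38.1%, against 8.88% of all genes). In males 16 lay below 0 with a median of −0.16, and in females 11 with a median near 0. Without the 3 libraries of high Cdhr1, 7 of 21 lay above 0 in both cohorts together and 6 in males (median −0.14). Ciart, a repressor of Clock and Arntl, stood at −0.51 ± 0.166, adjusted p 0.353, with −0.90 ± 0.218 in males and −0.22 ± 0.191 in females. Tef, a relative of Dbp, stood at −0.10 ± 0.0330, adjusted p 0.317.

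Dbp stood at 61.0, 72.8 and 79.2 CPM in male mutants, a lowest of 84.0, a median of 109 and a highest of 119.6 in stressed males and 57.9, 63.5, 70.2, 89.3 and 97.7 in unstressed male controls. In males, then, the mutants lay within the range of unstressed controls and below every stressed control. Female mutants held 78.0, 88.1, 93.1, 99.1 and 116 CPM and stressed females 106, 107, 116, 116 and 119. Per2 and Nr1d1 stood at −0.51 and −0.48 in males and near 0 in females, and Nfil3, a repressor of Dbp targets, at 0.35 and 0.16. The sources used here do not give the hour at which each mouse was killed, and its part in these values was not tested.

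E-boxes are where clock factors bind, so the promoters of 2 members with large male differences are shown, 250 bases before the start, 5′ to 3′, from RefSeq (GRCm38.p6), with each match to CACGTG in capitals. The motif reads the same on both strands. It is in 6.02% of 32851 windows of that length and in 5 of the 18 clock genes found in the table (Bhlhe41, Ciart, Cry1, Per1 and Tef). Dbp, Per2 and Nr1d1, also among the lowest in males, are not among these 5. The part of the motif in the male differences was not tested. Ciart holds 3 matches, the first 116 bases before the start, and Bhlhe41 holds 1, 153 bases before it.
Ciart promoter (chr3:95882229-95882478, minus strand): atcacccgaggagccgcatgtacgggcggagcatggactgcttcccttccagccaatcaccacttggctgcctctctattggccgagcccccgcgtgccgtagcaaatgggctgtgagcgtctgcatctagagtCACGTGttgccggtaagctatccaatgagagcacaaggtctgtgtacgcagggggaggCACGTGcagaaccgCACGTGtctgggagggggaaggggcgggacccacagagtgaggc
Bhlhe41 promoter (chr6:145865421-145865670, minus strand): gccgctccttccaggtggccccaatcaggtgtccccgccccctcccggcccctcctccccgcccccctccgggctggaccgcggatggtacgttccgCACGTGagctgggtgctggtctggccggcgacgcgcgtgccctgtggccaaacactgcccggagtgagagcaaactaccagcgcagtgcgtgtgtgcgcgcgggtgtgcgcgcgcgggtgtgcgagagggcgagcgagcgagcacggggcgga

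**Figure D5:**
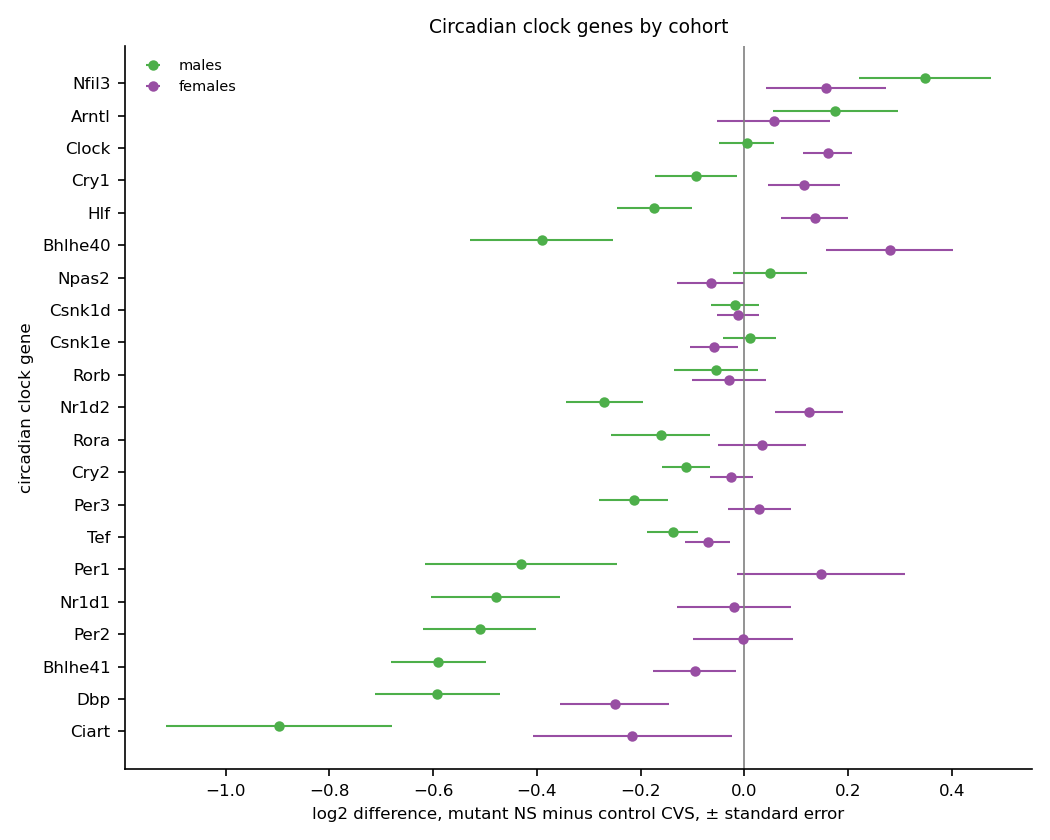
Log2 differences (mutant NS minus control CVS) with standard errors of 21 circadian clock genes, males in green and females in purple, ordered by the value in both cohorts together. Ciart, Dbp, Bhlhe41, Per2 and Nr1d1 lie at −0.48 or lower in males, and only Bhlhe41 passed there, while in females Dbp and Ciart are the lowest at −0.25 and −0.22.

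Glutamate receptors, the targets of excitatory transmission, held 8 of 22 members at an unadjusted p under 0.05 (36.4%, against 8.88% of all genes). These lay in both directions, and 0 passed. Grik5, a kainate receptor subunit (−0.11 ± 0.0332, adjusted p 0.237), and Grin2c, an NMDA receptor subunit (−0.13 ± 0.0399, adjusted p 0.264), lay below 0, and the metabotropic receptors Grm7 (0.11 ± 0.0396, adjusted p 0.367) and Grm8 (0.14 ± 0.0573, adjusted p 0.443) above it. For mutation alone Grin2c passed, at −0.22 ± 0.0448, adjusted p 0.0126. Of 19 heat shock proteins 16 lay above 0 (median 0.05) and 0 passed: Dnaja1, Hsp90aa1, Hspa8 and Hspa4l, chaperones of the cytosol, stood at 0.10, 0.09, 0.09 and 0.10. Their list median was near 0 for mutation alone and −0.05 for stress alone.

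Among 18 tested p53 target genes Ccng1 was the only one that passed. Rrm2b, a ribonucleotide reductase subunit, stood at 0.13 ± 0.0427, adjusted p 0.343, Pmaip1, a pro-apoptotic protein, at 0.23 and Gtse1 at 0.61, and 9 of the 18 lay above 0 with a median near 0. Of 16 meningeal fibroblast markers 15 lay above 0 (median 0.30, in females 0.42) and 0 passed, with the collagens Col1a2 at 0.37 ± 0.153, adjusted p 0.490 and Col3a1 at 0.54 ± 0.258, adjusted p 0.564, the GABA and taurine transporter Slc6a13 at 0.42 ± 0.179, adjusted p 0.511 and the proteoglycan Ogn at 0.52 ± 0.234, adjusted p 0.544. Without female control CVS replicate 1 the list median was 0.20. Whether these cells' share of the tissue enters the other differences was not tested beyond the covariate above.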

How the data were processed

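Whole medial prefrontal cortex RNA was sequenced in 38 libraries, each from 1 animal per the labels, and 19 enter this contrast. The authors deposited raw read counts per gene, made from reads trimmed with fastp 0.23.2, aligned with STAR 2.7.10b and counted with featureCounts against GRCm39, per the submitters' processing notes. The sources used here give neither the annotation release nor the strand setting, and reads of overlapping genes on opposite strands may not be told apart. The table holds 57010 gene IDs, of which 22462 were at 0 in all libraries and 52029 had a symbol.

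From these counts, genes were kept by edgeR's filterByExpr (minimum count 10, minimum total 15), which left 17038 in 19 libraries and 17671 in 38. Libraries were scaled by TMM and tested with edgeR 4.0.16 (R 4.3.3), robust quasi-likelihood, with cohort and group as terms and Benjamini-Hochberg adjustment over all genes tested, at a threshold of 0.05. Cohort values and their difference came from a 4-group model of the 19 libraries. Mutation alone and stress alone came from an 8-group model of all 38, averaged over cohorts. CPM values use the TMM factors of 38 libraries. The biological coefficient of variation was 0.08185 in 19 libraries. Within groups 38 pairs of libraries were checked for copies. Their counts differed by 4.307 to 16.59 chi-square units per degree of freedom, and 0 were identical. The scripts were tested on simulated data.

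The named genes are the 12 smallest p values per direction that passed over both cohorts, the 4 smallest per direction within each cohort and for the difference (3 where none passed), up to 4 per described list, and 12 genes taken regardless of p. Predicted genes and Rik transcripts are otherwise counted only. Some genes that the rule names are not reported here. The members and lists were chosen with earlier results of these data known. Alternatives were RLE scaling, no filter, DESeq2 1.42.0, limma voom (limma 3.58.1), other model layouts, a reduced library size, omitting 3 libraries with high Cdhr1 and leaving out each library in turn. The fibroblast covariate and the list counts under other settings were added after the data were seen. Promoters and gene order came from RefSeq tables of GRCm38.p6. Figures were drawn with matplotlib 3.10.9.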

Additional observations from a re-analysis of the deposited data

Results flagged for a closer look

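A single library lay far from the rest of its group for 14 of 264 combinations of a named gene and a group tested with Dixon's criterion, and chance alone flags about 1 in 20. Female control CVS replicate 2 stood apart for Fkbp5 (52.42 CPM against 29.54 to 34.62 in the other 4 libraries), Sgk1 (56.46 against 32.56 to 39.22) and Crhr1, the CRH receptor (28.36 against 34.04 to 34.59). Both glucocorticoid-induced genes were thus highest in the same stressed female. Male control CVS replicate 6 stood apart for Penk (29.28 CPM against 34.18 to 36.38), Trak1 (261.7 against 247.9 to 252.4) and Gjb6, connexin 30 (60.80 against 52.39 to 55.28).

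Among genes that passed in both cohorts together, Nwd2 was high in male control CVS replicate 1 (76.79 CPM against 59.70 to 65.22), which narrows its difference from the mutants. Megf11 was high in female control CVS replicate 5 (24.32 CPM against 19.29 to 20.43). Sh2d5 was low in male control CVS replicate 4 (95.21 CPM against 104.6 to 108.2), where Grin2c was high (64.36 against 53.77 to 56.40). Adcyap1r1, the PACAP receptor, was low in male control CVS replicate 5 (179.1 CPM against 195.6 to 204.7), and Fkbp8 was high in female control CVS replicate 1 (383.7 against 350.6 to 357.3). Among mutants, Syt2 was high in female mutant NS replicate 4 (25.23 CPM against 19.30 to 20.70) and Rnf39 in female mutant NS replicate 2 (7.497 against 4.508 to 4.898).

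The contrast differed between cohorts for Slc38a2, by 0.47 log2 units (female minus male), with the alternatives given above.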

How the results depend on the processing

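For the 18 genes called over both cohorts, all 540 values under other settings kept their direction and 460 kept the call. RLE scaling and the reduced library size gave similar counts for the direct contrasts. Without the filter on low counts 32 genes passed over both cohorts, 42 in males, 244 in females, 64 for the difference and 1 for stress alone. DESeq2 gave 64, 23, 290 and 44 for the same 4 contrasts, 105 for mutation alone and 15 for stress alone. limma voom gave 9 in males, 23 in females and 0 for the difference. The model of 38 libraries gave 31 over both cohorts, 8 in males and 105 in females. Fitted alone, males gave 11 and females 102. Omitting the 3 libraries with high Cdhr1 gave 62 over both cohorts, 10 in males and 5 for the difference. The cause of these shifts was not tested.

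Leaving out 1 library at a time, the counts ran from 9 to 37 over both cohorts, from 1 to 10 in males, from 4 to 173 in females and from 0 to 4 for the difference. The last was 0 in 10 of the 19 runs and highest without male control CVS replicate 5. Male calls were also 2 without male mutant NS replicate 2, 9 and 8 without male control CVS replicates 1 and 6, 3 without female control CVS replicate 1, 2 or 4, and 8 without female control CVS replicate 3 or female mutant NS replicate 2. Of the 18 genes, 9 lost the call in some run: Bhlhe22, Gng4 and Megf11 without male mutant NS replicate 3, and Sh2d5, Nwd2, Ap1s1, Igfn1, Stac2 and Arhgef25 in 3 to 12 runs each. No paired analysis was possible because the replicate numbers of the groups name different animals and were not shared labels.

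The male estimate rests on 3 mutants, and 2 of these had high Cdhr1. Libraries of 17.64 M to 25.12 M counts leave genes of a few CPM, such as Fgf10 and Thg1l, less precise than abundant ones.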

Other observations

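Lists outside the account above held 0 genes that passed, by edgeR's quasi-likelihood test. Of 75 cytosolic ribosomal proteins 69 lay above 0 in males and 22 in females. Without male mutant NS replicate 2 the male count was 21. Of 78 nuclear-encoded subunits of oxidative phosphorylation, which build the respiratory chain, 51 lay above 0 in males and 18 in females, and the male count was 16 without that same library. Of 12 mitochondrially encoded proteins 11 lay below 0 (median −0.06), 12 of 12 in males and 8 of 12 in females.

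MAP kinase feedback inhibitors, such as the dual-specificity phosphatases induced by activity, lay below 0 in 12 of 13 (median −0.05), with medians of −0.22 for mutation alone and −0.21 for stress alone. In males 2 of 13 lay above 0 (median −0.13) and in females 9 of 13 (median 0.05), and without female mutant NS replicate 1 the count above 0 over both cohorts was 6 in place of 1. Of 22 excitatory postsynaptic genes 6 lay above 0, with 7 at an unadjusted p under 0.05 (31.8%, against 8.88% of all genes). Myelin genes lay above 0 in 4 of 22 (median −0.08), astrocyte markers in 4 of 15, microglia markers in 4 of 16, and cortical glutamatergic neuron markers in 19 of 25 (median 0.02). Markers of VIP, CCK and Lamp5 interneurons lay above 0 in 5 of 17 (median −0.04), striatal markers in 4 of 14 and unfolded protein response genes in 14 of 20 (median 0.03).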
